A study of Drosophila melanogaster with 4 samples.

Results

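Regions enriched for dSFMBT were examined around the T-box transcription factor genes Doc1, Doc2, Doc3, H15 and mid in larvae of Drosophila melanogaster. Members were the enriched regions of chromatin immunoprecipitation followed by sequencing that overlapped either of 2 stretches of the genome. These were 3L from 8980000 to 9070000, the Doc1-Doc2-Doc3 window of 90 kb, and 2L from 5400000 to 5500000, the H15-mid window of 100 kb. The list that combined the replicates held 25 such regions of 9756 in all, 13 in the Doc1-Doc2-Doc3 window and 12 in the H15-mid window. The replicate 1 list held 16 of its 5514 regions there, and the replicate 2 list 18 of its 6004. All 4 samples came from wild-type Oregon-R animals at the third instar. They were 2 ChIP libraries made with the antibody Q2642 against dSFMBT, and 2 input libraries. Each ChIP library had its own list of regions, while the inputs had none, so no region was measured in an input separately here. The windows were chosen with the scores of their regions known, so the values below describe these loci and no test was made on them.

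T-box proteins share a DNA-binding domain, the T-box, and act mainly in the patterning of embryonic tissues. The Dorsocross genes Doc1, Doc2 and Doc3 lie in a cluster. They are transcribed in much the same pattern in the embryo, and act redundantly in the amnioserosa, the dorsal ectoderm and the heart. H15 and mid, the latter named midline, are a pair of related genes of the Tbx20 class that act in the heart, the ventral epidermis and the ventral side of the leg. dSFMBT is a Polycomb group protein that forms the PhoRC complex with Pho, a protein that binds DNA at Polycomb response elements. Polycomb group complexes keep developmental regulators silent in the cells where they are not needed, and transcription factor genes of this kind are among their usual targets.

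The RefSeq table of the fly genome, of release 6, placed Doc3, Doc2 and Doc1 in this order along 3L, with 2 other genes between Doc3 and Doc1. Those were CG5194, a protein-coding gene, and lncRNA:CR46451. CG5087 and smg, which encodes the RNA-binding repressor Smaug, preceded Doc3, and the arginine kinase genes Argk2 and Argk1 followed Doc1. On 2L the table placed H15 before mid, with 5 genes between them, none of them protein-coding. Positions of regions are in FlyBase release 5 as the files give them, so genes were used for their order only and no region was assigned to a gene. The other fly T-box genes bi, org-1 and byn were planned for a comparison of proteins alone, and were not analysed here. Below, a region at the Dorsocross genes means a region of the Doc1-Doc2-Doc3 window. A region at H15 and mid likewise means a region of the H15-mid window.

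Each region carried 1 score from the authors. The score lay on a log2 scale, and a ratio given below is 2 raised to the score. The files do not state the denominator of that ratio. Read depth was unknown from these files. The chromatin came from larval tissues together, so strong binding in few cells and weak binding in many cannot be told apart. A region was called shared when it overlapped a region of each replicate list by at least 1 bp, and its replicate score was the highest among the regions it overlapped there. Shared regions numbered 4036, which was 41.4% of the combined list. Their median score was 0.56, their median width 2878.5 bp, and their median SD between replicates 0.077. Whether the larvae of replicates 1 and 2 were collected separately is not in the labels, so the SD may be technical.

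The Doc1-Doc2-Doc3 window contained 7 shared regions among its 13, and 5 of the 7 had a ratio above 2. In the combined list as a whole 6.21% of regions had a ratio above 2, and among all shared regions 11.7% did. The 5 regions reached over 48.7 kb between the centres of the leftmost and the rightmost. In replicate 1 alone 3 of the 10 regions of the window passed that ratio, against 8.61% of its list. In replicate 2 alone 5 of the 11 did, against 12.5% of its list. Shared regions covered 25.7 kb, 28.6% of the window. On the arm 3L they covered 9.70%, and on the 6 chromosome arms together 11.3%.

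**Figure D1:**
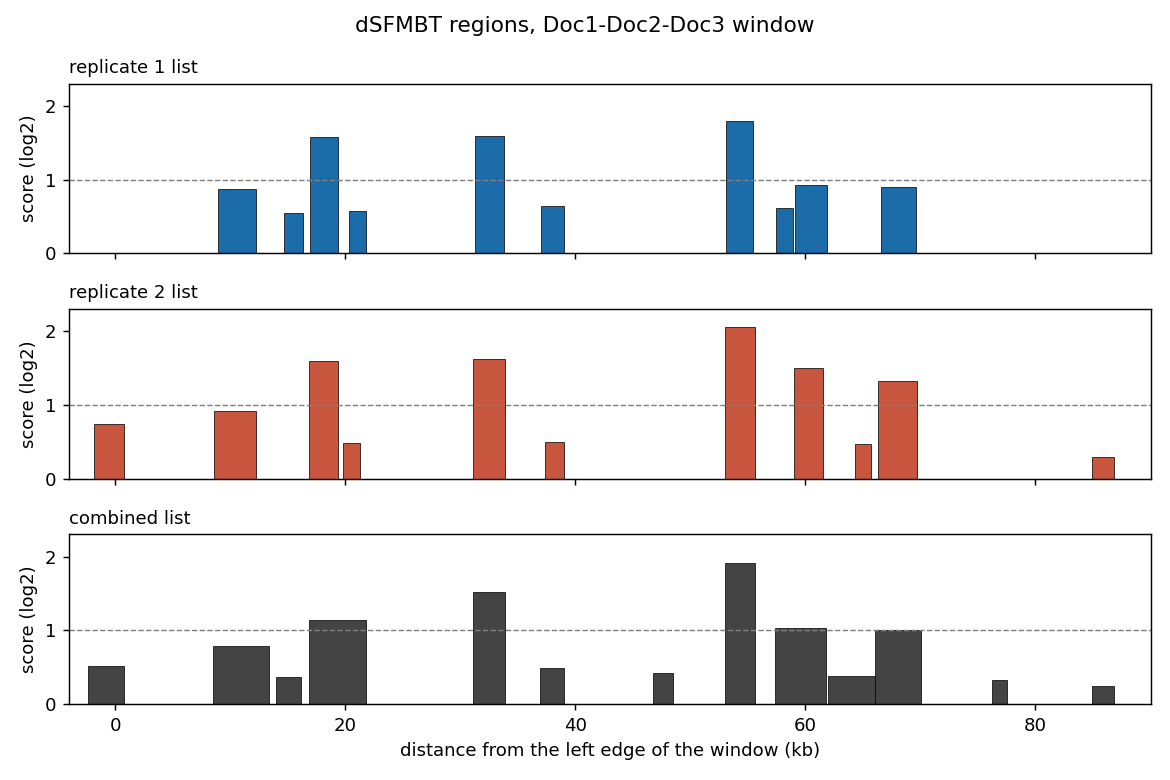
Enriched regions in the Doc1-Doc2-Doc3 window, with distance from the left edge of the window in kb on the horizontal axis and the authors' score (log2) on the vertical axis. Each bar is 1 region drawn to its width, in replicate 1 (top), replicate 2 (middle) and the combined list (bottom). The dashed line marks a ratio of 2, which 3 bars pass in replicate 1 and 5 in each of the other lists.

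The strongest region of the Doc1-Doc2-Doc3 window ran from 9033017 to 9035607, 2591 bp wide. It scored 1.79 in replicate 1, 2.06 in replicate 2 and 1.91 in the combined list. Its ratios in the replicates were thus 3.46 and 4.18, and its mean replicate score was 1.93 ± 0.19 (SD, n = 2). It held rank 37 of the 4036 shared regions by combined score and rank 6 among those on 3L. In the replicate lists it held ranks 47 and 45. Its scores differed more than in most shared regions, of which 15.3% had a larger difference between the replicates. The median score of those shared regions was 0.56, and the share among the 471 with a ratio above 2 was not computed. The centres of the strongest region in the replicates lay 47.5 bp apart, against a median of 160.75 bp over all shared regions.

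The region from 9011083 to 9013876 was second in the window. Replicate 1 gave it 1.59, replicate 2 gave it 1.62 and the combined list 1.53, with a replicate mean of 1.61 ± 0.018 (SD, n = 2). This was a closer match between libraries than in most shared regions, since 86.5% of them had a larger difference between the replicates. Its combined score held rank 99 of the shared regions. The gap from the centre of this region to that of the strongest was 21.8 kb, the widest between adjacent regions with a ratio above 2 in this window.

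The region from 8996867 to 9001807 was the widest of the window at 4941 bp, and the lists differed in how it was cut. Replicate 1 split it into a piece of 2504 bp with a score of 1.57 and a piece of 1465 bp at 0.58. Replicate 2 split it likewise, into 2538 bp at 1.59 and 1494 bp at 0.49. Its replicate mean, taken from the higher piece, was 1.58 ± 0.015 (SD, n = 2). The combined list joined the pieces and gave the whole a score of 1.14, below both higher pieces. Each library therefore showed a compact strong part on the left and a weaker part on the right, and the combined score ranked the whole at 316 of the shared regions. A split into at least 2 pieces in each replicate was found in 10 of the 471 shared regions with a ratio above 2.

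The other pair of regions with a ratio above 2 lay to the right of the strongest, and here the libraries differed. The region from 9037321 to 9041770 scored 0.92 in replicate 1 and 1.51 in replicate 2, with 1.04 in the combined list. Replicate 1 split it, and its lower piece, from 9037437 to 9038897 at 0.62, overlapped no region of replicate 2. The region from 9046074 to 9050077 scored 0.90 in replicate 1 and 1.33 in replicate 2, with 1.00 in the combined list. Both lay below a ratio of 2 in replicate 1, at 1.89 and 1.87, and above it in replicate 2, at 2.84 and 2.51. Their combined ratios, 2.051 and 2.003, were just inside the limit of 2. The replicate means were 1.21 ± 0.41 and 1.11 ± 0.30 (SD, n = 2 for each). Of all shared regions, whose median score was 0.56, 3.44% and 6.69% had a larger difference between the replicates. Such shares were not computed among the 471 shared regions with a ratio above 2. The count of 5 regions above the limit thus rested on replicate 2 for these regions, and without replicate 2 it was 3.

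2 further shared regions had ratios below 2. The region from 8988515 to 8993350, 4836 bp wide, scored 0.87 in replicate 1, 0.92 in replicate 2 and 0.79 in the combined list. Its replicate mean of 0.90 ± 0.034 (SD, n = 2) lay above the median combined score of shared regions, and it was the member nearest below the limit of 2, at a combined ratio of 1.73. The region from 9016976 to 9019057 scored 0.64 and 0.50 in the replicates, with 0.49 in the combined list. It was the weakest shared region of the window and held rank 2613 of the 4036.

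Within the window the 7 shared regions had the same order of score in replicate 1, in replicate 2 and in the combined list. The strongest stood clear of the second, since its lower replicate score exceeded the higher score of the second by 0.17. The second and the third were 0.022 apart in replicate 1 and 0.026 apart in replicate 2, less than the median SD between replicates of all shared regions. The third, the fourth and the fifth had means of 1.58, 1.21 and 1.11. Across the libraries the replicate scores of the fourth overlapped those of the fifth, and those of the fifth overlapped those of the sixth. Within replicates 1 and 2 the fourth exceeded the fifth by 0.019 and 0.18, and the fifth exceeded the sixth by 0.029 and 0.40. The seventh lay below the sixth in each replicate, by 0.23 and 0.42.

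Regions of the combined list lay close to each other at the Dorsocross genes. Joined across gaps of up to 1 kb, 3 of them made a block from 8988515 to 9001807, 13.3 kb long, and 3 others a block from 9037321 to 9050077, 12.8 kb long. Of the 7202 blocks made in the same way on the arms, 1.35% were at least as long as the former and 1.68% at least as long as the latter. The strongest region and the second were in neither block, and each stood alone at this joining distance. The strongest lay 1713 bp left of the right block and joined it across gaps of up to 2000 bp. The longest block of the window was then 17.1 kb. The gaps inside the right block were 212 and 61 bp in the combined list. In replicate 1 the middle of that block held no region, and its regions there ended at 9041883 and began again at 9046543. Replicate 2 had a weak region in that middle, from 9044275 to 9045671, at 0.47. The longest block in either replicate list was 7.08 kb, in replicate 1 from 8994715 to 9001797. In replicate 2 the longest was 5.42 kb, from 9044275 to 9049698. Of the blocks of their own lists on the arms, 2.97% were at least as long as the former and 7.80% at least as long as the latter. The joining distance was chosen after the positions had been seen.

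The remaining 6 regions of the Doc1-Doc2-Doc3 window were not found in both replicates, and their combined scores ran from 0.24 to 0.52. The region from 8994003 to 8996190, between the regions of the left block, was found in replicate 1 alone, at 0.55. Those from 8977660 (0.74 in replicate 2), from 9041983 (0.47) and from 9064920 (0.30) were found in replicate 2 alone. The first of these overlapped the left edge of the window and ended at 8980809. The regions from 9026780 to 9028510 and from 9056203 to 9057558 were found in neither replicate list, with combined scores of 0.43 and 0.33. In the whole combined list 32.1% of regions were found in neither replicate, 16.7% in replicate 2 alone and 9.89% in replicate 1 alone. The longest gap between adjacent shared regions of the window was 14.0 kb, from 9019058 to 9033016, just left of the strongest region. No shared region lay between 9050077 and the right edge of the window.

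In the combined list the H15-mid window held fewer shared regions and fewer with a ratio above 2. Of its 12 combined-list regions 4 were shared, or 33.3%, against 41.4% of the whole list. A ratio above 2 in the combined list was found for 3 of the 4, against 11.7% of all shared regions. The same 3 were above 2 in replicate 1 and in replicate 2. In replicate 1 the Doc1-Doc2-Doc3 window also had 3 regions above 2. The windows thus differed in that count in the combined list and in replicate 2, but not in replicate 1. Shared regions covered 9.26 kb, 9.26% of the window, close to the 10.0% they covered on the arm 2L. Regions with a ratio above 2 numbered 30.0 per Mb in the window against 3.56 per Mb on the arm. Without replicate 1, so that presence in replicate 2 sufficed, 7 regions counted as shared and covered 16.0% of the window. The whole combined list covered 22.8% of the window and 16.4% of the arm.

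**Figure D2:**
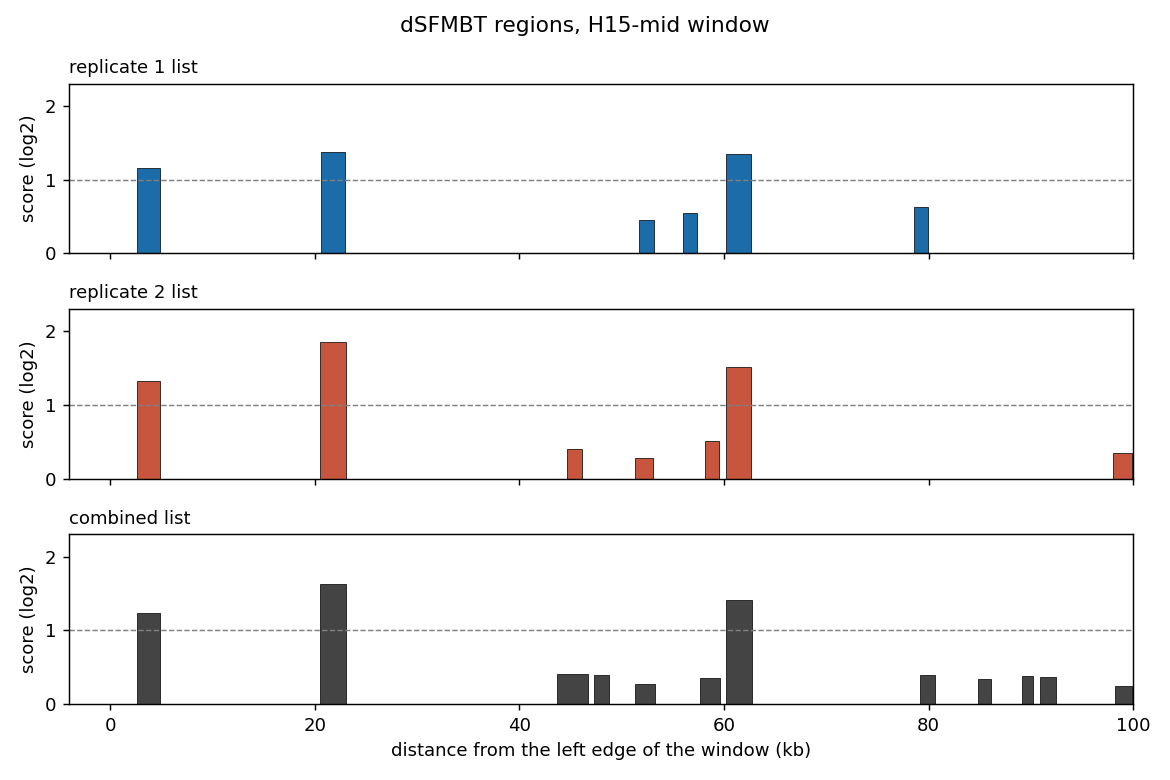
Enriched regions in the H15-mid window, with distance from the left edge of the window in kb on the horizontal axis and the authors' score (log2) on the vertical axis. Each bar is 1 region drawn to its width, in replicate 1 (top), replicate 2 (middle) and the combined list (bottom). The same 3 places pass the dashed line, a ratio of 2, in every list, and the other regions stay at or below 0.63.

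The strongest region at H15 and mid ran from 5420523 to 5423045. It scored 1.37 in replicate 1, 1.86 in replicate 2 and 1.63 in the combined list, with a replicate mean of 1.62 ± 0.34 (SD, n = 2). Its ratio was 2.59 in replicate 1 and 3.63 in replicate 2, and 5.33% of shared regions had a larger difference between the libraries. The median score of those shared regions was 0.56, and the share among the 471 with a ratio above 2 was not computed. By combined score this region held rank 75 of the shared regions and rank 10 among those on 2L. Although the heights differed, the centres in the replicates were 15.5 bp apart, the smallest distance among the 11 shared regions of the windows.

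The region from 5460175 to 5462722 scored 1.34 in replicate 1, 1.52 in replicate 2 and 1.42 in the combined list. Its replicate mean was 1.43 ± 0.13 (SD, n = 2), its ratios 2.53 and 2.87, and its rank 130 of the shared regions. Within each replicate it scored below the strongest region, by 0.031 in replicate 1 and 0.34 in replicate 2. Across the replicates their scores overlapped, and the 0.031 was less than the median SD between replicates of all shared regions. The centre of this region was 39.7 kb from that of the strongest.

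The region from 5402591 to 5404877 lay close to the left edge of the window. It scored 1.16 in replicate 1, 1.33 in replicate 2 and 1.23 in the combined list, with a mean of 1.24 ± 0.12 (SD, n = 2). Its higher replicate score was 0.015 below the lower score of the region from 5460175, so the separation across the libraries was slight. Within each replicate the difference between them was 0.19. The region from 5402591 held rank 230 of the shared regions. As at the Dorsocross genes, all shared regions of the window had the same order in replicate 1, in replicate 2 and in the combined list.

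The fourth shared region of the H15-mid window, from 5451319 to 5453223, was of a different height. It scored 0.45 in replicate 1, 0.28 in replicate 2 and 0.27 in the combined list, and held rank 3994 of the 4036. No shared region of the window had a score between this one and those with a ratio above 2.

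The 8 regions of the window that were not shared had combined scores from 0.25 to 0.41, all below the median of shared regions. Replicate 2 alone had those from 5443645 (0.41 in that library), from 5457706 (0.51) and from 5498180 (0.35). Replicate 1 alone had the region from 5479180, at 0.63. The other 4 were found in neither list, as were 32.1% of all combined-list regions, and 3 of them lay between 5484865 and 5492493. A replicate 1 region from 5456042 to 5457380, with a score of 0.54, overlapped no region of the combined list or of replicate 2. In the whole replicate 1 list 113 of 5514 regions had no combined-list region. Between the strongest region and the next shared one to its right, 28.3 kb held no shared region.

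Across both windows the scores of the strong regions were higher in replicate 2. That held for 8 of the 8 regions with a ratio above 2, but it also held for 79.2% of the 471 such regions of the genome and for 59.1% of all shared regions. The direction was thus the one most strong regions had. A ratio above 2 in each replicate was found for 6 of the 8, or 3 of 5 at the Dorsocross genes and 3 of 3 at H15 and mid. Over the genome 73.7% of the 471 passed in each replicate. Of the 14 unshared regions of the windows 0 had a ratio above 2, and among all unshared regions 2.36% did.

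**Figure D3:**
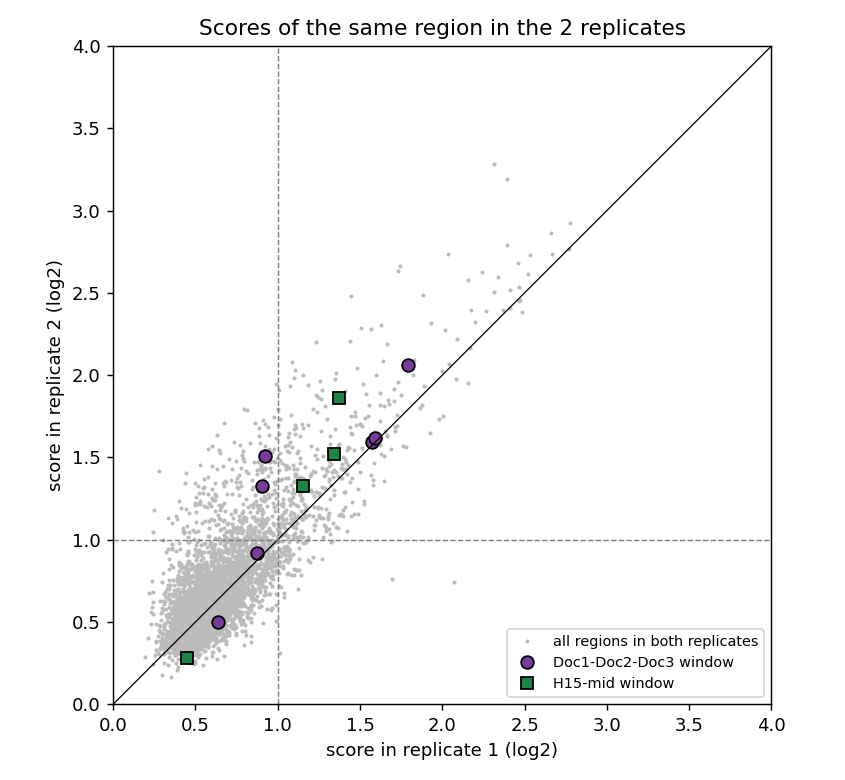
Score in replicate 1 (horizontal) against score in replicate 2 (vertical), both log2, for the 4036 shared regions (grey), with those of the Doc1-Doc2-Doc3 window as circles and those of the H15-mid window as squares. The line marks equal scores and the dashed lines a ratio of 2. The 2 circles near 0.9 in replicate 1 and above 1.3 in replicate 2 are the regions from 9037321 and from 9046074.

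In the combined list the strong regions of the loci differed in width. At H15 and mid the 3 regions with a ratio above 2 were 2287 to 2548 bp wide. At the Dorsocross genes the 5 were 2591 to 4941 bp wide, so these ranges did not overlap, though their ends lay close. The strongest and the second Dorsocross region were 2591 and 2794 bp wide. The share of all strong shared regions in either range was not computed. The median over all 471 such regions was 2930 bp. The widths were closer in the replicate lists, which cut some regions into pieces. There the highest piece of each strong Dorsocross region was 2371 to 3035 bp wide in replicate 1 and 2490 to 3347 bp in replicate 2. The corresponding widths at H15 and mid were 2218 to 2455 bp in replicate 1 and 2263 to 2511 bp in replicate 2. These ranges overlapped in each replicate. No test was made, since these regions were chosen by score.

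**Figure D4:**
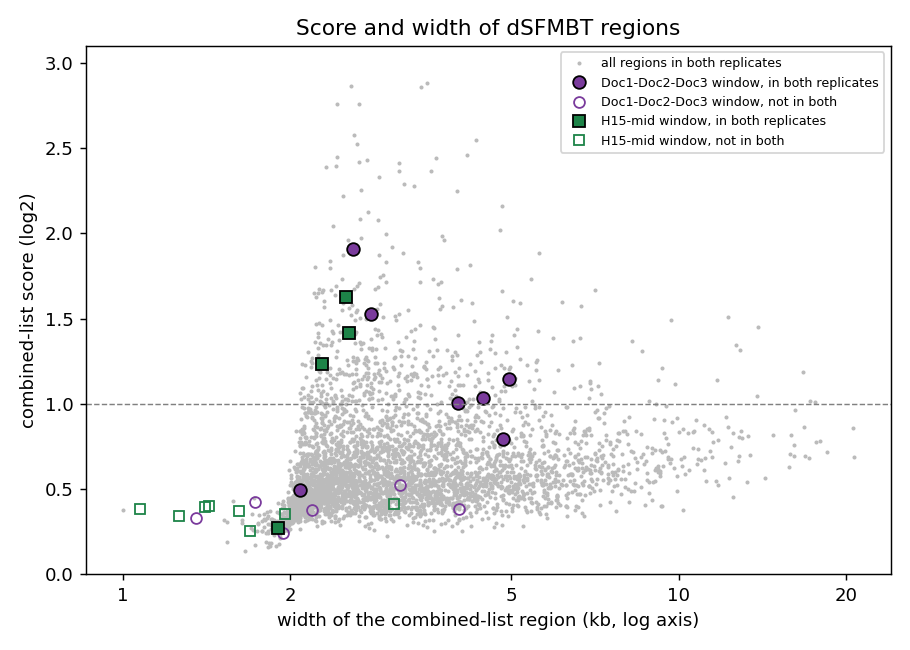
Width of each combined-list region in kb (horizontal, log axis) against its combined-list score (log2, vertical). Grey points are the 4036 shared regions, filled symbols the 11 shared regions of the windows and open symbols the 14 regions not found in both replicates. The filled squares above the dashed line, a ratio of 2, lie left of all filled circles above it. The widest of these squares is 2548 bp and the narrowest of these circles 2591 bp.

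In the combined list, few places on the arms held as many strong regions as the Doc1-Doc2-Doc3 window. On the 6 arms, 3 stretches had 5 shared regions with a ratio above 2 overlapping 90 kb. The Dorsocross locus was among them, over 53.2 kb, and the others lay on 3R, over 217 kb with 14 such regions, and on X, over 93.9 kb with 7. For 3 such regions overlapping 100 kb, as at H15 and mid, there were 33 stretches, of which 5 were on 2L. The stretch that held the H15-mid regions ran from 5324054 to 5462722, over 139 kb with 5 such regions, so it reached past the left edge of the window. Windows of 90 kb placed every 10 kb had at least 7 shared regions in 9.47% of 11988 placements, and at least 5 with a ratio above 2 in 0.209%. For the H15-mid window, at least 4 shared regions were found in 42.8% of 11982 placements of 100 kb, and at least 3 with a ratio above 2 in 1.77%. These placements overlap each other, and the windows were picked for their scores, so the shares describe and do not test. The 5 strong regions of the Doc1-Doc2-Doc3 window included those from 9037321 and 9046074. Their combined ratios were 2.051 and 2.003, and each lay below 2 in replicate 1. Without replicate 2 the count was 3, and stretches and placements of 90 kb were not counted for that number.

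In the combined list, distances to the nearest strong shared region, meaning a ratio above 2, were shorter at the Dorsocross genes. A strong region at the Dorsocross genes had its nearest strong neighbour at 5.23 to 13.1 kb, between centres. At H15 and mid the distances were 18.1 to 39.7 kb. Over the 456 strong shared regions of the arms the median was 68.4 kb and the lower quartile 24.5 kb. Distances between all adjacent strong centres in the combined list were 5.23 to 21.8 kb at the Dorsocross genes. At H15 and mid they were 18.1 to 39.7 kb, so the ranges of adjacent distances overlapped. In replicate 1 the Doc1-Doc2-Doc3 window had 3 strong regions, and their adjacent centres lay 14.4 to 21.7 kb apart. The replicate 1 range in the H15-mid window was 18.0 to 39.7 kb, so the ranges overlapped there too. The windows were picked for their scores, so the distances describe and do not test.

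The nearest regions outside the windows had ratios below 2. To the left of the Doc1-Doc2-Doc3 window the nearest combined-list region lay 10.8 kb away at 0.58 and was shared, and to the right the nearest lay 17.2 kb away at 0.27 and was found in replicate 2 alone. The H15-mid window had its nearest outside regions 12.9 kb to the left at 0.32 and 5.66 kb to the right at 0.29, each found in replicate 1 alone. Replicate 1 had no further region to the right of the Dorsocross genes for 47.7 kb past the edge of the window. Replicate 2 had its nearest region left of the H15-mid window 22.1 kb away, at 0.88.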

How the data were processed

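ChIP libraries (2) and inputs (2) were grouped and numbered by their titles. The aligner was Bowtie 0.12.7, per the submitters' processing notes. Per the file headers, positions refer to FlyBase release 5. Not given in the sources used here: how regions were called, at which threshold, with what use of inputs and of multiply matching reads, and how replicates were merged into 1 list. The authors deposited 1 score per region, treated here as a log2 value. That scale was read from the values: among the 66 pairs of the 12 most frequent scores of a list, differences equalled, within 1e-07, the log2 of a fraction whose denominator was 40 or less in 16 pairs of the combined list, 44 of replicate 1 and 24 of replicate 2, against 0 for natural log or base 10. The smallest region was 1001 bp in the combined list and 1301 bp in each replicate list, so narrow combined-list regions could not be found in a replicate at the same width.

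Lists were compared with numpy 2.4.6 and pandas 2.3.3 in Python 3.11.15, and figures drawn with matplotlib 3.10.9. On simulated lists, overlap and joining gave the same counts as bedtools 2.31.1. The members and the quantities described were chosen with earlier results of these data known, so no test was made. The genes, every region of the windows and the nearest regions outside were named. Comparisons of protein and promoter sequences were planned and not analysed here. Alternatives were leaving out a replicate, a coverage of 50% by each replicate, replicate regions no lower than their list's median score, the whole combined list, region centres in the window, and windows widened by 20 kb. Other joining distances were added after seeing the data.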

Additional observations from a re-analysis of the deposited data

How the results depend on the processing

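The number of shared regions was 13 (Doc1-Doc2-Doc3 window) and 12 (H15-mid window) in the whole combined list, where no replicate was required by construction. With a replicate left out it was 8 to 10 and 5 to 7. The number with a ratio above 2 was 3 to 5 at the Dorsocross genes with a replicate left out, 3 without replicate 2, and 3 in each case at H15 and mid. The percentage of the Doc1-Doc2-Doc3 window covered was 31.0 to 36.1% with a replicate left out, 26.2% for replicate regions no lower than their list's median score, 42.0% in the whole combined list and 24.1% with 20 kb added on each side. For the H15-mid window it was 10.7 to 16.0%, 7.36%, 22.8% and 6.62%. The highest score was 1.79 to 2.06 and 1.37 to 1.86 with a replicate left out. A coverage of 50% and centres in the window changed none of these 8 quantities. The longest block at H15 and mid, 5.09 kb, was 3.08 kb when regions were joined across gaps of up to 500 bp. The longest at the Dorsocross genes, 13.3 kb, was 12.8 kb at 500 bp. At 2000 bp it was 17.1 kb and took in the strongest region. The cause of the changes was not tested otherwise. No paired analysis was possible because region lists existed for the ChIP group alone and nothing was tested between groups. Depth is unknown, so a region missing from a list may have been missed for lack of reads.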
